A study of Homo sapiens with 3 samples.

Results

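The comparison set HepG2 cells exposed to 100 μM etoposide for 30 h, the high dose of the study, against control cells of the same time point, and it rests on 2 of the 3 arrays of the series. HepG2 is an established human hepatocellular carcinoma line that carries wild-type p53. Both cultures grew in medium with fetal bovine serum, and the labels name no agent other than etoposide and no genetic change in either. The labels give the control as 0 μM and untreated, whereas the ratios of the study are named over DMSO. The remaining array, from cells given etoposide at 10 μM over the same 30 h, is quoted beside single genes as the low dose. Amplified Cy3-labeled RNA was read on 1-color Agilent arrays, so each gene has 1 value per condition and no difference has a replicate check or a p-value.

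Etoposide holds topoisomerase II on cleaved DNA and leaves double-strand breaks, which activate the ATM and ATR kinases and through them the transcription factor p53. p53 induces the CDK inhibitor p21, encoded by CDKN1A, and with CDKs inhibited the pocket proteins bind E2F factors and assemble the DREAM repressor on genes of DNA replication and mitosis. p53 also induces genes of the extrinsic and intrinsic death pathways. The study used the low dose as a condition of senescence and the high dose as a condition of apoptosis, and the question here was which genes stood apart at the high dose.

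A signal is the deposited spot intensity after background subtraction by the scanner software. Fold changes were computed after each array had been set relative to the 75th percentile of its probes, which multiplied every ratio of 100 μM over 0 μM by 1.19. Signals are quoted before this scaling, so a slightly lower signal at 100 μM can go with a scaled rise. A gene was represented by its brightest probe, and it was evaluable if that probe was well above background on at least 1 of the 2 arrays. Of 27269 gene names, 16974 were evaluable, of which 15466 were measured on both arrays. For the other evaluable genes the dimmer signal was replaced by the lowest one that its array still measured well above background, and the fold change is a lower bound. The words raised and lowered are used below for differences of more than 2-fold.

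At the high dose, 1762 genes, or 10.4% of the evaluable genes, differed more than 2-fold from the control. Of these, 1145 were raised (6.75%) and 617 were lowered (3.63%). Beyond 3-fold there were 591 genes (3.48%), with 313 raised (1.84%) and 278 lowered (1.64%), and beyond 8-fold the counts were 16 and 28. The raised and lowered genes differed in their level. The genes raised more than 3-fold had a median signal of 26.7 at 0 μM, where the lowest signal that counted as well above background was 19.5. Their median at 100 μM was 106, and 127 of them are lower bounds. The genes lowered more than 3-fold had a median signal of 729 at 0 μM and 118 at 100 μM, and 224 of them were measured on both arrays. Other evaluable probes existed for 33 of these raised genes and for 52 of these lowered genes. The median of a gene's other probes had the same sign in 32 and in 52 of them. It passed 2-fold in the same direction in 24 and in 41, and 3-fold in 13 and in 32.

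Raised genes were 313 of the 591 genes past 3-fold, but this split followed the scaling. Their share was 32.7% without scaling, 30.9% with the array median, 39.0% with quantile normalization, 38.7% with spike-in controls and 57.3% with the percentile taken over all spots. The median log2 difference of all evaluable genes was 0.09 with the main scaling and -0.19 with the array median. The 7 spike-in probes, which read control RNA added to the samples, differed by -0.08 on the log2 scale (SD 0.03 over the 7 probes). Genes of a list are therefore read below against the other genes of the same arrays.

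**Figure D1:**
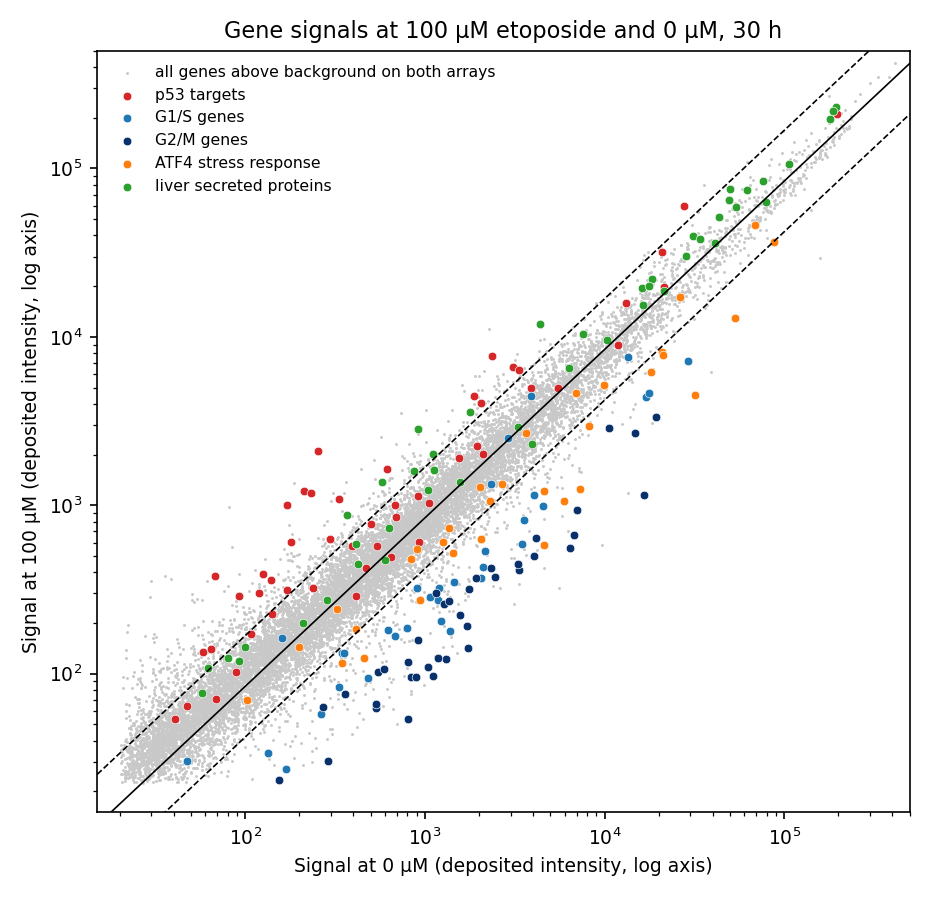
Signal of each gene at 0 μM (horizontal) and 100 μM (vertical), both as deposited intensity on log axes, for genes well above background on both arrays. Against the solid line of equal scaled signals and the dashed lines of 2-fold differences, the G2/M genes and most G1/S genes lie under the lower dashed line, ATF4 genes reach below it at high signals, and p53 targets lie mostly above the solid line.

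Genes of the G2 and M phases, which build the spindle and drive entry into and exit from mitosis, were lowered as a whole. All 40 genes of the list were lowered more than 2-fold, against 3.63% of all evaluable genes, and all 40 were also past 3-fold. Their median log2 difference was -2.65, with values from -3.67 to -1.62, whereas the median of all evaluable genes was 0.09. Every scaling left all 40 past 2-fold. In bulk RNA, a smaller share of cells in a phase and less RNA per cell in that phase cannot be told apart.

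Among the cyclins and CDK genes, CCNB2, which encodes cyclin B2, had a signal of 6419 at 0 μM, 5142 at 10 μM and 554 at 100 μM. This is a 9.74-fold decrease at the high dose, while the low dose stayed near the control. CCNB1, for cyclin B1, went from 4173 to 638, and its low dose signal was 4161. CDK1, listed on the array as CDC2, fell from 1763 to 318. FOXM1, the transcription factor that activates many mitotic genes, fell from 897 to 95.3. The 9 genes of this group had a median log2 difference of -2.46.

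The mitotic kinases had the lowest median of the 5 roles on the list, with a log2 difference of -3.09 over 8 genes. PLK1, which controls centrosome maturation and mitotic entry, had a signal of 1111 at 0 μM, 705 at 10 μM and 96.4 at 100 μM, a 9.69-fold decrease. AURKB, the kinase of the chromosomal passenger complex, had a signal of 230 at 0 μM and was not well above background at the high dose, so it was at least 8.92-fold lower. BUB1 and BUB1B, kinases of the spindle checkpoint, differed by -3.18 and -3.01 on the log2 scale. BIRC5, the survivin subunit of the same passenger complex and a member of the inhibitor of apoptosis family, fell from 16560 to 1145, with 12230 at 10 μM. This was a 12.2-fold decrease.

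Motor and kinetochore genes were lowered to a similar extent. KIF4A, a kinesin that binds chromosomes, had a signal of 810 at 0 μM, 864 at 10 μM and 53.7 at 100 μM, a 12.7-fold decrease. On hg18, its probe is found on chromosome X, bases 69556872 to 69556931. KIF15, a spindle kinesin, fell 11.6-fold from 696 to 50.2. It is on no list, nor are the next 3 genes, which the sizes of their falls brought in. NDC80 and SPC25, subunits of the complex that attaches kinetochores to microtubules, fell 10.3-fold and 9.57-fold, and CENPK, another kinetochore protein, was at least 10.3-fold lower. TOP2A, the topoisomerase II isoform of dividing cells and a target of etoposide, went from 803 to 117. TOP2B, the isoform that is also present in resting cells, had a signal of 3028 at 0 μM and 1971 at 100 μM, a log2 difference of -0.37 that did not pass 2-fold.

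**Figure D2:**
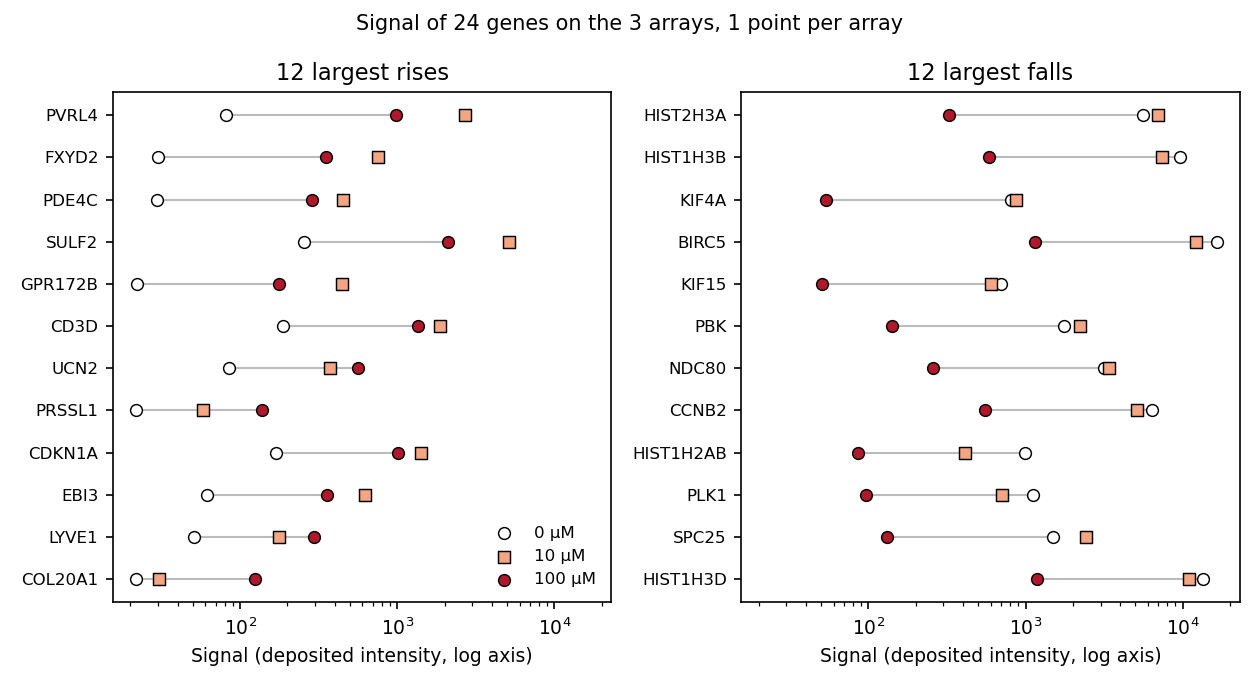
Signal (deposited intensity, log axis) of the 12 most raised (left) and 12 most lowered (right) RefSeq mRNA genes measured on both arrays, with 1 point per array. On the right, the 100 μM points sit far below both other points for each gene, for example 53.7 against 810 and 864 for KIF4A, and on the left, most 10 μM points lie above the 100 μM points, and UCN2, PRSSL1, LYVE1 and COL20A1 are the exceptions.

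Many promoters of these genes held the same short sequence elements. CHR elements, with the letters TTTGAA, and CCAAT boxes, bound by NF-Y, are the known elements of mitotic promoters, and GCGGGAA is a form of the E2F site of replication genes. Each was searched on both strands from 250 bases before to 50 bases after the RefSeq start of transcription on GRCh38.p14. TTTGAA was present in 21 of the 32 promoters found for the 40 G2/M genes (65.6%), compared with 10.2% of the 10614 promoters of evaluable genes and 15.4% of all 27305 promoters. It lay between 100 bases before and 50 bases after the start in 18 of the 32, compared with 4.16% of the promoters of evaluable genes. CCAAT was present in 24 of the 32 and in 36.6% of the promoters of evaluable genes.

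The 250 bases before the start are shown for 4 lowered mitotic genes with both elements, because the short distance between the elements and the start can be seen in them. Capitals mark the CHR element, the CCAAT box and the E2F motif on either strand. On the opposite strand the CHR element reads as TTCAAA, the box of NF-Y as ATTGG, and the E2F motif as TTCCCGC. KIF4A lies at chrX:70289854-70290103 on the plus strand, CCNB2 at chr15:59104896-59105145 on the plus strand, PLK1 at chr16:23678639-23678888 on the plus strand and CDC20, an activator of the anaphase-promoting complex, at chr1:43358731-43358980 on the plus strand.
KIF4A: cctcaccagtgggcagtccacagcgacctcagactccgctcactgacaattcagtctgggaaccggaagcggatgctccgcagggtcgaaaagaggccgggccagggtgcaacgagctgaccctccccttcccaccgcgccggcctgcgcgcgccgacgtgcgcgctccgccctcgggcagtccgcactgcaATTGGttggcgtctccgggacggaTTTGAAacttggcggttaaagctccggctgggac
CCNB2: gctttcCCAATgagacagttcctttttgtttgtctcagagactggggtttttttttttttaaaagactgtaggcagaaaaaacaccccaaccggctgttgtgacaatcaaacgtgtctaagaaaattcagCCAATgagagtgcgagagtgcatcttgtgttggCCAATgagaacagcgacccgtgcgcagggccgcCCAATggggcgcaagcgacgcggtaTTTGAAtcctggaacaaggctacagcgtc
PLK1: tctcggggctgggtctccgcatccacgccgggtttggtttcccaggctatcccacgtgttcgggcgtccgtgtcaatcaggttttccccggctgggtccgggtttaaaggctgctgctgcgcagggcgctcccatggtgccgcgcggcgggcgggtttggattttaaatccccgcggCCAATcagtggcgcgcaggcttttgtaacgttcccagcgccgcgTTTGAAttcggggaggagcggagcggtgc
CDC20: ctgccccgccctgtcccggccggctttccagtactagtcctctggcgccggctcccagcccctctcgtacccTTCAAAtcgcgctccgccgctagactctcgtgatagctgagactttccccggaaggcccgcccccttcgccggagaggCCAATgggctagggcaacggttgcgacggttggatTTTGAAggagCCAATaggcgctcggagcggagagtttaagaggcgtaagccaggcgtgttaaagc

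In KIF4A the TTTGAA element began 34 bases before the start and the CCAAT box 58 bases before it. In CCNB2 and PLK1 the TTTGAA element began 29 bases before the start in both, with the nearest CCAAT box at 54 and at 73 bases. In CDC20, whose signal was 911 at 0 μM, 635 at 10 μM and 158 at 100 μM, the nearer TTTGAA element began at 65 bases and the CCAAT boxes at 55 and 100 bases.

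Read across the 10614 evaluable genes with a promoter, of which 4.07% were lowered, the combination of elements went with the share of lowered genes. Among 459 evaluable genes with both TTTGAA and CCAAT in the promoter, 17.9% were lowered more than 2-fold and 4.58% were raised. With TTTGAA alone the share lowered was 7.26%, with CCAAT alone 4.38%, and with neither 2.54%. Leaving out the genes of the G1/S and G2/M lists, the share lowered was 14.5% of 441 genes with both elements and 2.33% of 6095 genes with neither. This still holds other cell cycle genes, among them mitotic genes on no list and the replication-dependent histones. TTTGAA was present in 34.0% and CCAAT in 87.2% of the histone promoters. Genes with GCGGGAA were lowered in 7.82% of cases, compared with 3.65% of the genes without it. A match shows only that the letters are present, and binding was not measured.

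**Figure D3:**
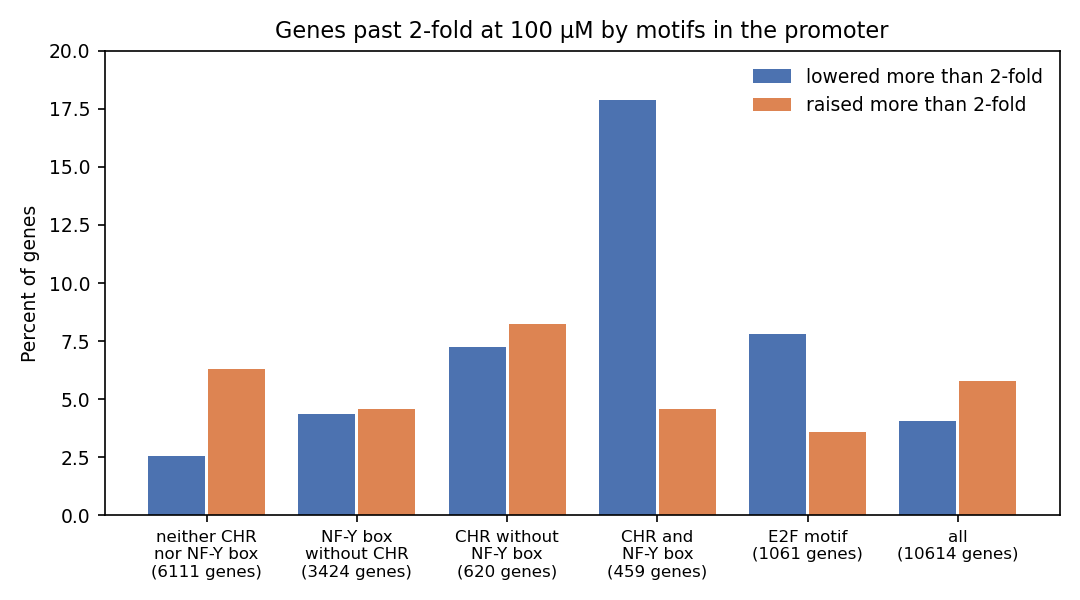
Percent of evaluable genes that were lowered (blue) or raised (orange) more than 2-fold at 100 μM, by the motifs in their promoters, where CHR is TTTGAA, NF-Y box is CCAAT and E2F motif is GCGGGAA. The share lowered is 17.9% where CHR and NF-Y box occur together and 2.54% where neither occurs, while the share raised stays between 3.58% and 8.23% in all classes.

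Genes of the G1/S transition, which E2F factors activate ahead of DNA synthesis, were lowered with a smaller median than the mitotic genes. Of 36 evaluable genes, 29 were lowered more than 2-fold, compared with 3.63% of all evaluable genes, and none was raised. Their median log2 difference was -1.74, compared with -2.65 for the mitotic genes. The helicase and origin genes were lowered in all 11 cases. MCM2, a subunit of the replicative helicase, had a signal of 2057 at 0 μM, 3115 at 10 μM and 372 at 100 μM. GINS2 and CDC45, listed as CDC45L, are partners of this helicase and differed by -2.70 and -2.30 on the log2 scale. The low dose signals of MCM2, GINS2 and CDC45L all lay above those of the control, whereas the high dose signals lay far below.

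The regulators of this transition were split. E2F1, the leading activator, had a signal of 486 at 0 μM, 936 at 10 μM and 93.7 at 100 μM. E2F2 had 1189, 4131 and 273 in the same order, so that the doses lay on opposite sides of the control. UHRF1, which maintains DNA methylation at replication forks, and CDT1, a licensing factor, were lowered by 2.34 and 2.04 on the log2 scale. E2F7, an E2F repressor that p53 induces, had a signal of 160 at 0 μM, 1324 at 10 μM and 163 at 100 μM, and CCNE1, for cyclin E1, had 2918, 4247 and 2498. Neither passed 2-fold at the high dose.

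Among the synthesis genes, 12 of 15 were lowered, compared with 3.63% of all evaluable genes. RRM1 and RRM2, the ribonucleotide reductase subunits that supply deoxynucleotides, differed by -1.87 and -1.74 on the log2 scale. TK1, thymidine kinase, went from 29170 to 7162, with 56500 at 10 μM. PCNA, the sliding clamp, which p53 also induces, had a signal of 3886 at 0 μM, 16890 at 10 μM and 4472 at 100 μM, a log2 difference of 0.45 that did not pass 2-fold.

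The E2F motif GCGGGAA was found in 14 of the 31 promoters of G1/S genes (45.2%) and in 10.0% of the promoters of evaluable genes, and TTTGAA in 1 of the 31. The promoters of the helicase genes MCM3, at chr6:52284743-52284992 on the minus strand, and MCM7, at chr7:100101398-100101647 on the minus strand, are shown because they hold this motif together with CCAAT boxes. Capitals mark the same elements as above.
MCM3: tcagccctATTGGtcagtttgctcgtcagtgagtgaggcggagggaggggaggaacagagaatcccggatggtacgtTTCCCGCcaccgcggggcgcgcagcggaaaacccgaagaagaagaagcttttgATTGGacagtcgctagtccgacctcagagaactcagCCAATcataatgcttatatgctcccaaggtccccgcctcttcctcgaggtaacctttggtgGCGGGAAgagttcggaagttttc
MCM7: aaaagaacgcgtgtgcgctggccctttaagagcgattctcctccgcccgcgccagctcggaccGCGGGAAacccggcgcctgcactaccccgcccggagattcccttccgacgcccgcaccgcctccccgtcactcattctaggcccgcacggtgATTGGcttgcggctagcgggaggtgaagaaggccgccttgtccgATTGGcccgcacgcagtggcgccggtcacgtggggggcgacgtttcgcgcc

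In MCM3, GCGGGAA began 23 and 173 bases before the start, and in MCM7 at 187 bases. Another form of the E2F site, GCGCGAA, was present in 5 of the 31 promoters (16.1%) and in 3.82% of the promoters of evaluable genes. It is not marked in capitals, and its opposite strand form, TTCGCGC, lies close to the start in MCM7. MCM3 had a signal of 16910 at 0 μM, 20050 at 10 μM and 4405 at 100 μM. MCM7 had 17640, 25110 and 4662 in the same order. Both thus exceeded the control by less than 2-fold at 10 μM and were lowered at 100 μM.

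Among genes of DNA damage signaling and repair, 15 of 47 evaluable genes were lowered, compared with 3.63% of all evaluable genes, and none was raised, with a median log2 difference of -0.69. The number lowered was between 15 and 23 over the scalings. Most of the lowered genes belonged to homologous recombination, the repair route of S and G2 phase, where 8 of 12 were lowered. BRCA1, which promotes end resection, had a signal of 583 at 0 μM, 1273 at 10 μM and 133 at 100 μM. BLM, a helicase of the same route, had 470, 1065 and 91.6 in the same order. Both genes were above the control at the low dose and below it at the high dose. Probes of XRCC3 disagreed, with the brighter one 1.25-fold higher and a dimmer one 2.21-fold lower.

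In the Fanconi group, which repairs crosslinks, 4 of 9 genes were lowered, compared with 3.63% of all evaluable genes. FANCI was at -2.36 and FANCD2 at -2.19 on the log2 scale. FANCA was represented by its brightest probe, which was 1.01-fold higher. Its dimmer probes were 1.67-fold lower and at least 6.12-fold lower. In end joining only POLQ, the polymerase of the alternative route, was lowered among 7 evaluable genes, at -2.15 on the log2 scale. XRCC6, for the Ku70 subunit of the classical route, had a signal of 65530 at 0 μM and 39310 at 100 μM. In the kinase and adaptor group CHEK1 alone was lowered among 14 genes, from 554 to 153. ATM went from 419 to 222 and ATR from 687 to 547 without passing 2-fold. A second ATM probe went the other way, from 111 to 127, 1.36-fold higher, so the direction of ATM is uncertain. After scaling, ATR was 1.06-fold lower on the probe used and 1.02-fold higher on a dimmer one. The tyrosyl-DNA phosphodiesterases that remove trapped topoisomerases, TDP1 and TDP2 (listed as TTRAP), had log2 differences of -0.93 and -0.11.

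Replication-dependent histone genes, which supply S phase chromatin, were lowered unevenly. Of 52 evaluable genes, 26 were lowered, compared with 3.63% of all evaluable genes, and 1 was raised, with a median log2 difference of -1.04. H4 genes were lowered in 10 of 11 cases and H3 genes in 7 of 10, but H2B genes in 2 of 16. HIST1H3B had a signal of 9684 at 0 μM, 7416 at 10 μM and 581.9 at 100 μM, a difference of -3.81 on the log2 scale. HIST2H3A, outside the list, fell 14.5-fold from 5603 to 325, the largest decrease among RefSeq mRNA genes with a measured signal on both arrays. In contrast, HIST1H1C, for a linker histone, had 6868 at 0 μM and 10250 at 100 μM. Histone genes are near-identical copies, so a probe can catch transcripts of several genes, and the values of single copies are uncertain. CCAAT was present in 87.2% and TATAAA in 68.1% of 47 histone promoters, compared with 36.6% and 6.54% of the promoters of evaluable genes.

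The p53 targets moved the other way. Of 52 evaluable genes, 22 were raised more than 2-fold, against 6.75% of all evaluable genes, and none was lowered, with a median log2 difference of 0.84. The median at the low dose, over the same control array, was 1.29. The list holds PRODH and DAO, which the study selected on these arrays, and others that it named from them, among these CDKN1A, MDM2, PCNA, POLH, BTG2 and SULF2, so its count is not independent evidence of its direction.

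Genes given the role of cell cycle arrest led the list, with 10 of 14 raised, compared with 6.75% of all evaluable genes. This role also holds MDM2 and PPM1D, which act on p53 or the damage signal. The shares of the roles therefore do not contrast arrest with death. CDKN1A had a signal of 170 at 0 μM, 1407 at 10 μM and 1010 at 100 μM, a 7.07-fold increase. On hg18, its probe is found on chromosome 6, bases 36760156 to 36760215. BTG2, an antiproliferative cofactor, had 212, 2241 and 1214 in the same order, and TP53INP1, a stress-induced nuclear protein, had 232, 1638 and 1180. MDM2, the ubiquitin ligase that degrades p53, had 616, 4522 and 1652. In all of these the high dose lay between the control and the low dose. PPM1D, the phosphatase that ends the damage signal, had 693, 2229 and 855, and it did not pass 2-fold at the high dose.

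Of the genes given the role of apoptosis on the p53 list, 4 of 12 evaluable genes were raised, compared with 6.75% of all evaluable genes. FAS, the death receptor, had a signal of 120 at 0 μM, 478 at 10 μM and 300 at 100 μM. TP53I3, an oxidoreductase, had 2365, 14210 and 7687, and the death domain protein PIDD1, listed as LRDD, and SPATA18 differed by 1.35 and 1.34 on the log2 scale. BBC3, which encodes the BH3-only protein PUMA, had 5507 at 0 μM, 8713 at 10 μM and 5004 at 100 μM. BAX had 3881, 8374 and 4987, and TNFRSF10B, the TRAIL receptor DR5, had 11930, 16380 and 8933. None of these passed 2-fold at the high dose. After scaling, BBC3 was 1.08-fold higher, BAX 1.53-fold higher and TNFRSF10B 1.12-fold lower. PMAIP1, for NOXA, was not well above background on any array.

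The remaining p53 targets were mixed. SULF2, which trims sulfates from heparan sulfate, had a signal of 255 at 0 μM, 5158 at 10 μM and 2097 at 100 μM. DAO, the D-amino acid oxidase, had 67.9, 960 and 378, and GLS2, a mitochondrial glutaminase, had 92.6, 593 and 289. GDF15, a secreted stress factor, had a very high signal already in control cells, with 197100, and it had 375200 and 209400 at the doses. In the DNA repair role, POLH, DDB2 and FDXR were raised by 1.61, 1.18 and 1.36 on the log2 scale, and XPC, at 0.69, did not pass 2-fold.

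Few genes of the wider death machinery differed by that size, and lists this small would hold few at the shares of all evaluable genes. None of 14 evaluable BCL2 family genes passed 2-fold, compared with 10.4% of all evaluable genes. Their values ranged from -0.77 for BIK to 0.72 for BAK1. The anti-apoptotic genes MCL1 and BCL2L1 had log2 differences of 0.11 and 0.13. BCL2 itself was not well above background on any array. Of 28 evaluable genes of caspases and death signaling, FAS alone was raised and none was lowered. Of all evaluable genes, 6.75% were raised and 3.63% lowered. RIPK1, a kinase of death receptor complexes, and TNFRSF10D, a TRAIL decoy receptor, had log2 differences of 0.84 and 0.86. The median of the BCL2 list was 0.12 with the main scaling and -0.17 with the array median, and that of the death list was 0.19 and -0.10. The median of all evaluable genes moved alike, from 0.09 to -0.19.

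**Figure D4:**
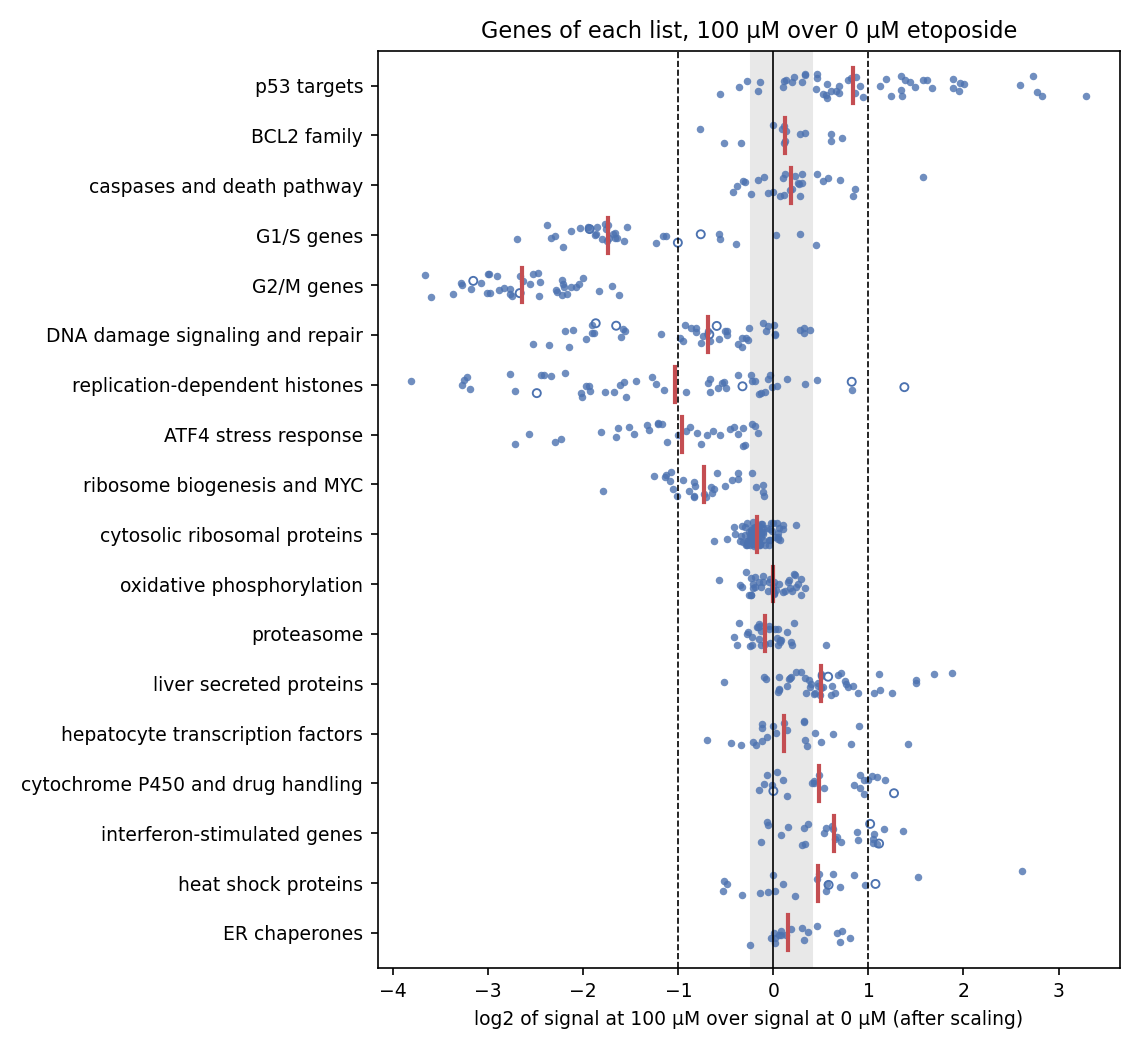
log2 of the scaled signal at 100 μM over 0 μM for the evaluable genes of 18 lists, with 1 point per gene, open circles for lower bounds, red bars for medians, a grey band over the quartiles of all genes measured on both arrays and dashed lines at 2-fold. G2/M genes lie between -3.67 and -1.62, ATF4 genes all lie below 0, and ribosomal protein, oxidative phosphorylation and proteasome genes stay inside 2-fold.

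A further group that was lowered was the ATF4 stress response. ATF4 is the transcription factor that is translated when amino acids run short or the ER is stressed, and it drives amino acid import, amino acid synthesis and tRNA charging. Of 32 evaluable genes, 16 were lowered, compared with 3.63% of all evaluable genes, and none was raised. All 32 had values below 0, from -2.72 to -0.16, and the median log2 difference was -0.96. The number lowered was between 15 and 20 over the scalings.

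SLC7A11, the cystine importer, had a signal of 4579 at 0 μM, 1792 at 10 μM and 584 at 100 μM. ASNS, asparagine synthetase, had 31800, 17400 and 4502, and MTHFD2, a mitochondrial folate enzyme, had 5937, 4361 and 1064. In these genes the low dose lay between the control and the high dose. In the raised genes of the arrest role named above, the high dose lay between the control and the low dose. Regulators were lowered as well. ATF4 itself had 87330, 55010 and 36590, DDIT3, for the ER stress factor CHOP, had 937, 494 and 275, and TRIB3, a feedback pseudokinase, had 53540, 26300 and 12860. ATF3, a related factor that p53 also induces, had 2021, 4009 and 1279, and it did not pass 2-fold at the high dose. DDIT4, an inhibitor of mTORC1, and STC2, a secreted glycoprotein, were lowered by 2.30 and 1.63 on the log2 scale. ER chaperones, which fold secreted proteins, showed no difference of this size. None of 18 passed 2-fold, compared with 10.4% of all evaluable genes. HSPA5, for BiP, had 2619 at 0 μM and 2417 at 100 μM, which was 1.10-fold higher after scaling.

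MYC, which drives growth and ribosome synthesis, had a signal of 12510 at 0 μM, 6132 at 10 μM and 3044 at 100 μM. In the list of ribosome biogenesis, 8 of 29 genes including MYC were lowered, compared with 3.63% of all evaluable genes, all 29 had values below 0, and the median log2 difference was -0.73. The number lowered was between 6 and 16 over the scalings. NPM1, for nucleophosmin, had 141900, 99550 and 56730 in control, low dose and high dose cells. DKC1 and NOP58, which belong to small nucleolar ribonucleoproteins, had log2 differences of -1.13 and -1.01. The genes of the ribosome itself differed little, with no member of 76 past 2-fold and a median of -0.17. Of 39 genes of oxidative phosphorylation and 31 of the proteasome, none passed 2-fold, compared with 10.4% of all evaluable genes.

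Genes of hepatocyte function were near or above their control levels. Of 47 evaluable liver secreted proteins, 8 were raised, compared with 6.75% of all evaluable genes, and none was lowered. The median log2 difference was 0.50, and 44 had values above 0, which became 35 without scaling or with the array median. The number raised was between 4 and 8 over the scalings, and the median was between 0.21 and 0.56. FGA, a fibrinogen chain, had a signal of 911 at 0 μM, 1473 at 10 μM and 2826 at 100 μM. SERPINA3, an acute phase protease inhibitor, had 4387, 7016 and 11910, and the coagulation factors F10 and F11 were raised 2.38-fold and 2.82-fold. Albumin, ALB, had 3966, 2473 and 2327, 1 of the 3 values below 0. AFP, the fetal counterpart of albumin that marks HepG2, had 79160 at 0 μM and 62990 at 100 μM.

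Of 23 hepatocyte transcription factors ONECUT1 alone was raised, from 34.6 to 77.4, a share under the 6.75% of all evaluable genes. In cytochrome P450 and drug handling genes, 4 of 23 were raised, compared with 6.75% of all evaluable genes. They were CYP8B1, CYP3A7, CYP4F2 and, as a lower bound, GSTP1, but the number was between 0 and 7 over the scalings. ABCB1, the efflux pump for which etoposide is a substrate, had 490 at 0 μM, 559 at 10 μM and 574 at 100 μM. None of 16 genes of fatty acid and triglyceride synthesis passed 2-fold, compared with 10.4% of all evaluable genes. In glycolysis, HK1 and PFKFB4 were raised among 23 genes, a share near the 6.75% of all evaluable genes, and the number was between 0 and 2 over the scalings.

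Interferon-stimulated genes had 8 of 26 evaluable genes raised, compared with 6.75% of all evaluable genes, and none lowered, with a median log2 difference of 0.64. ISG15, a ubiquitin-like modifier, had a signal of 8951 at 0 μM, 14440 at 10 μM and 15730 at 100 μM, and IFI6 had 111, 130 and 240. These values lay close to the threshold, since the highest was 1.36 on the log2 scale, and the number raised was between 1 and 8 over the scalings. Among 16 evaluable NF-kB targets and cytokines, IL11 and IL32 were raised, compared with 6.75% of all evaluable genes. IL11 had 309, 1103 and 1186 in control, low dose and high dose cells, whereas NFKBIA, the feedback inhibitor of NF-kB, had 5390, 6122 and 3133.

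Among 22 heat shock genes, 3 were raised, compared with 6.75% of all evaluable genes, and 7 had values below 0, down to -0.53. The raised genes were HSPA1A, from 53.8 to 277, HSPA1B, from 1168 to 2818, and HSPB8, a lower bound, and their number was between 2 and 4 over the scalings. HSPA1A and HSPA1B encode the inducible HSP70 and are near-identical, so a probe for either can catch both transcripts. Of 13 evaluable metallothionein genes and regulators, MT1G and MT1F were lowered, compared with 3.63% of all evaluable genes, and MT2A had 53230 at 0 μM, 103300 at 10 μM and 62330 at 100 μM. Their probes too can catch near-identical copies, and probes of the same gene disagreed for MT1H and MT1X. The brighter probes, which represent these genes, were 1.105-fold and 1.091-fold higher. Dimmer probes were 4.43-fold lower for MT1H and 2.08-fold lower for MT1X. Among 22 NRF2 targets, SLC7A11, also on the ATF4 list, was lowered, and HMOX1 was raised by 1.02 on the log2 scale. These shares are near the 3.63% lowered and 6.75% raised of all evaluable genes. No NRF2 target was raised without scaling, with the array median, with spike-in controls or with normexp background correction. Of 21 immediate early factors MYC alone was lowered, a share near the 3.63% of all evaluable genes, and none was raised.

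The largest increases at the high dose belonged to genes of varied function, many of them dim in control cells. PVRL4, for the adhesion protein nectin 4, had a signal of 80.8 at 0 μM, 2708 at 10 μM and 983 at 100 μM, a 14.5-fold increase. FXYD2, a sodium pump subunit, and PDE4C, which degrades cyclic AMP, followed with 3.81 and 3.52 on the log2 scale. UCN2, a peptide of the corticotropin-releasing factor family, had 84.6, 375 and 566, and LYVE1, a hyaluronan receptor, had 50.8, 177 and 295. For both of these the high dose was above the low dose. EBI3, a cytokine subunit, rose 6.91-fold from 61.4 to 357.

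Several increases are known only as lower bounds. TREM2, a receptor of myeloid cells, did not stand well above background at 0 μM and had 2470 at 10 μM and 944 at 100 μM, at least 57.5-fold higher than the control. NPR3, the clearance receptor for natriuretic peptides, and TRH, the precursor of thyrotropin-releasing hormone, were well above background at the high dose only, with signals of 302 and 129. They were at least 18.4-fold and 7.84-fold higher. RRAD, a Ras-related GTPase, had 367 at 10 μM and 297 at 100 μM, at least 18.1-fold higher than the control. In the other direction, TCTN2, a ciliary protein, had 206 at 0 μM and was not well above background at the high dose, at least 8.02-fold lower.

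Some raised genes are known from other cell types, so marker lists were read on the same arrays. Of all evaluable genes, 6.75% were raised. The summed signals below are of deposited intensities before the scaling, which multiplied ratios by 1.19. They include members not well above background, so small differences between sums have no reading. HepG2 markers were evaluable in 13 of 13 cases, TTR alone was raised, and their summed signal was 499892 at 0 μM and 557169 at 100 μM. Fibroblast markers were evaluable in 1 of 10 cases, with the collagen genes COL1A1, COL1A2 and COL3A1 not well above background on any array. The evaluable one, PDGFRB, had 95.6 at 0 μM and was not well above background at 100 μM, at least 3.58-fold lower. The summed signal of the fibroblast list was 140 at 0 μM and 98.7 at 100 μM. Of 5 evaluable endothelial markers TIE1 and ROBO4 were raised, but KDR and TEK were not well above background. PECAM1, the brightest of the list and the only evaluable one below 0, went from 473 to 286, 1.39-fold lower. The summed signal of the endothelial list, which PECAM1 weighs on most, was 703 at 0 μM and 668 at 100 μM. Of 8 evaluable leukocyte markers CD14 and CD68 were raised, from 521 to 1847 and from 173 to 409, and the summed signal of that list was 5615 at 0 μM and 8755 at 100 μM. PTPRC, the pan-leukocyte gene CD45, had 257 at 0 μM and 288 at 100 μM. CD3D, a T cell receptor chain, rose 8.61-fold from 188 to 1358, with 1880 at 10 μM, whereas CD3E of the same complex had 46.8 and 52.9. The part of other cells in these values was not tested.

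Gene length was examined because topoisomerase poisons can block elongation in long genes. Length was the RefSeq span of the gene. Among RefSeq mRNA genes measured on both arrays, the median log2 difference was 0.17 for 1395 genes under 5 kb, 0.14 for those of 5 to 10 kb and 0.13 for those of 10 to 20 kb. It was -0.03 for genes of 50 to 100 kb, -0.08 for 100 to 200 kb and -0.04 for 679 genes over 200 kb. At the low dose the median of the longest class was -0.23 and that of the shortest was -0.002. Across the 12177 measured genes with a length, Spearman's rho between length and the log2 difference was -0.17, as a description over genes that share the same arrays and are not independent. Longer genes were also dimmer, with a median signal of 710 in the shortest and 323 in the longest class.

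**Figure D5:**
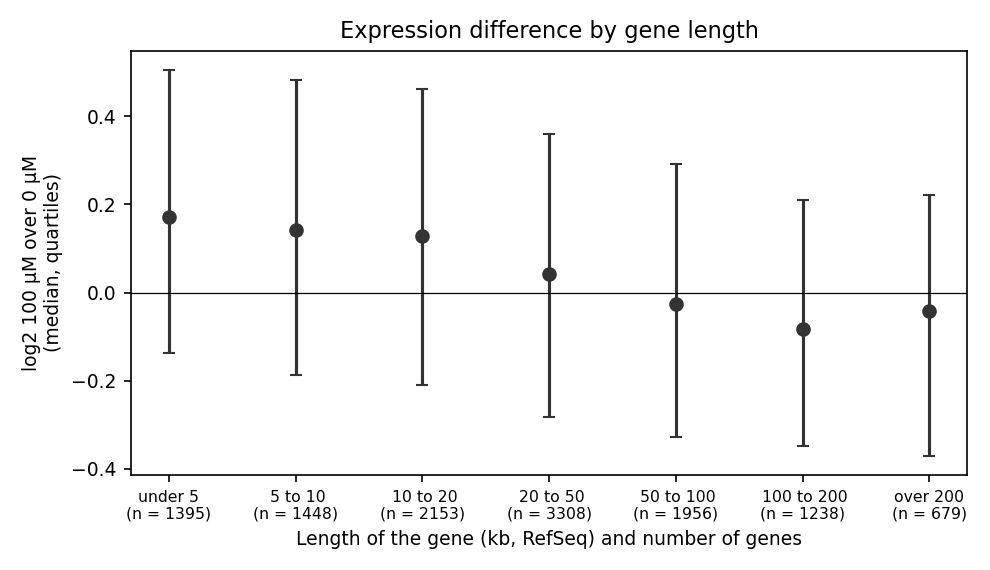
Median (points) and quartiles (bars) of the log2 difference of 100 μM over 0 μM for genes measured on both arrays, by gene length in kb with the number of genes in each class. The medians run from 0.17 under 5 kb to -0.08 at 100 to 200 kb.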

How the data were processed

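RNA of HepG2 cells treated with 0, 10 or 100 μM etoposide for 30 h was measured on 1 array each. The authors deposited the intensity of every spot as written by Agilent Feature Extraction 10.7.3.1 (per the submitters' processing notes), with background subtracted, and a series table whose values were equal to that intensity, within a relative difference of 1e-06, in all 44495 spots. No scaling between arrays had been applied by then. The members and the gene lists, with their roles, were chosen with earlier results of these data known.

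Control spots were left out. Intensities were taken as log2, averaged over the spots of each of 34127 probes without the software's outlier spots, and reduced by the 75th percentile of their array over probes. This percentile was a signal of 514 at 0 μM and 432 at 100 μM, and between 19836 and 20151 probes per array were well above background by the majority of their spots. No spot was saturated. A gene name was represented by the probe with the highest mean over the 3 arrays. Signals that were not well above background were raised to the lowest signal that was, 19.5 at 0 μM and 21.6 at 100 μM. Symbols are those of the array design, updated for lists, lengths and promoters through RefSeq tables on GRCh38.p14, in which 20078 of 27269 gene names matched. Probe positions are on hg18, and the place of a probe within its transcript was not analysed here.

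Genes were named by rule. They were the 12 largest rises and falls among genes with a RefSeq mRNA accession measured on both arrays, the 5 largest lower bounds each way, and the 3 members at either end of every list. Further members were picked for their role with their values in view. Some genes that the rule would name are not reported here. The spread between repeated spots had a median SD of 0.08 on the log2 scale at signals of 50 to 300, and it covers 1 array and not cultures. The number of arrays limits the precision. The steps were tested on simulated data for 100 μM over 0 μM, made from the control array with its spot spread and 27270 gene names. There 106 of 106 genes raised and 93 of 94 lowered by 2.5 on the log2 scale were called past 3-fold, and 0 of 15993 unchanged genes. The planted shifts lay well past the cut, and no spread between cultures or arrays was put in. The simulation therefore checks the calculation and gives no error rate for the genes called here.

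Alternatives were other scalings (none, array median, quantile, percentile over all spots or over probes well above background on both arrays, spike-in controls), normexp background correction, other filters, other probe rules, RefSeq mRNA genes only and outlier spots kept. Python 3.11.15, pandas 2.3.3, numpy 2.4.6, R 4.3.3 and limma 3.58.1 were used.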

Additional observations from a re-analysis of the deposited data

How the results depend on the processing

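No paired analysis was possible because there is just 1 array at each dose, and no replicate could be left out for the same reason. The 7 counts were recomputed under 13 alternatives, which gives 91 values, and 73 of them stayed within 1.5 times the reported count. The counts of p53 targets, G1/S genes and G2/M genes past 2-fold stayed within that range under all 13, at 19 to 24, 24 to 30 and 38 to 40. Of the 313 genes raised more than 3-fold, the count was 183 without scaling, 174 with the array median, 208 with quantile normalization, 60 with normexp, 186 with probes well above background on both arrays and 1297 with no filter and no floor. The count raised more than 2-fold, 1145, was 634, 586, 762, 382, 761 and 3242 in the same order and 750 with spike-in controls. The 278 genes lowered more than 3-fold became 146 with normexp and 480 with no filter and no floor. The 617 lowered more than 2-fold became 1071 without scaling, 1181 with the array median and 1049 with no filter and no floor. Low signal over background limits what is known of the raised genes, since 127 of the 313 are lower bounds.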

Other observations

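Among genes measured on both arrays, the share raised more than 2-fold was lower at higher mean signals. It was 8.83% under 50, 8.73% from 50 to 200, 3.85% from 200 to 1000, 2.62% from 1000 to 5000 and 1.71% over 5000. The share lowered was 0.449%, 3.11%, 4.13%, 3.90% and 2.20% in the same order, with its highest value from 200 to 1000. The median log2 difference was 0.40 under 50 and -0.04 over 5000. Transcripts without a RefSeq mRNA accession, which had a median control signal of 101, were raised in 7.95% and lowered in 2.24% of 3889 cases, compared with 6.39% and 4.05% of 13085 genes with such an accession, whose median control signal was 512.

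Chromosomes differed in their medians. Genes on chromosomes 22 and 19 had median log2 differences of 0.23 and 0.18, and those on chromosomes 18 and 4 had -0.11 and -0.10, over 324, 993, 166 and 398 evaluable genes with a RefSeq mRNA accession. On chromosome 4, 7.29% of genes were lowered more than 2-fold and 3.52% raised, compared with 2.62% and 8.06% on chromosome 19.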
